A study of Rattus norvegicus with 12 samples.

Results

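The insulin and insulin-like growth factor (IGF) axis was followed as 10 genes, chosen by symbol, in wound tissue of diabetic rats. They were the ligands *Igf1* and *Igf2*, the receptors *Insr* and *Igf1r*, the adaptors *Irs1* and *Irs2*, and the binding proteins *Igfbp2*, *Igfbp3*, *Igfbp4* and *Igfbp5*. All 10 were found among the 25620 genes of the deposited count table and among the 25524 genes of the FPKM table, and all 10 passed the low-count filter that left 16110 genes for testing. The study asked how dressings made from snail mucus affect a chronic wound. Young adult male Sprague-Dawley rats were made diabetic with streptozotocin, a toxin of insulin-producing beta cells, and received full-thickness punch wounds on the back. All 4 groups shared this diabetes and this wound. The control wounds received saline, the d-SMG wounds received the dried mucus gel of *Achatina fulica*, the s-GAG wounds (labelled GAG) received the sulfated glycosaminoglycan purified from it, and the Alg wounds received a commercial alginate dressing. Each treatment was sequenced on days 3, 7 and 14 as 1 library each, 12 in all, and whether a library held 1 rat or a pool is not given in the sources used here. The authors state that the streptozotocin model has limits as a model of the human diabetic foot ulcer.

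Insulin and the 2 IGF ligands signal through related receptor tyrosine kinases. The activated receptors recruit insulin receptor substrate (IRS) adaptors, which pass the signal to PI3 kinase and AKT. The secreted binding proteins hold IGFs in the tissue and the circulation, and can lower or prolong ligand access to the receptor. In skin wounds IGF-1 is known as a growth factor of keratinocytes and fibroblasts.

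With 1 library per treatment and day, there was no replicate within any of the 12 conditions. Days were therefore compared with the 4 treatments as replicates, and treatments with the 3 days as replicates, in an additive edgeR quasi-likelihood model, and same-day comparisons were given without a test. The p-values measure only the spread between these libraries. Levels of 1 gene across libraries are given as CPM, reads scaled to a common library size after adjustment by the trimmed mean of M-values (TMM), and levels of different genes are compared as FPKM, which adjusts for length. Libraries held 13748887 to 38302461 reads. The tissue was labelled skin, yet the 6 skeletal muscle markers summed to between 4081 and 173884 CPM, and the 6 keratinocyte markers to between 50.9 and 30218 CPM, with none of either list at 0 in any library. The d-SMG day 3 library had the highest muscle and the lowest keratinocyte sum. In the s-GAG day 14 library short transcripts were high and long ones low. Against the control of that day, the median log2 difference was 1.24 for the shortest quartile of genes and -1.12 for the longest. In bulk tissue, fewer cells of a type and less RNA per cell cannot be told apart.

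*Igfbp5* had the largest difference within the axis, and *Igfbp4* was the only member for which the control was lowest on every day, so their promoters are shown first, with that of *Insr* as the receptor that was the more abundant by FPKM. RefSeq promoter sequences of the GRCr8 build, 250 bases before and 50 after the start, were held for 9 of the 10 genes, with 2 entries for *Igf2* and none for *Irs2*. Capitals mark a match, on either strand, to any of 4 short motifs, namely the TATA box TATAAA, the E-box CACGTG, the GC box GGGCGG, and the forkhead (FOXO) core TTGTTTAC. These motifs do not overlap one another in the windows printed.

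Igfbp4, chr10:84491221-84491520, plus strand: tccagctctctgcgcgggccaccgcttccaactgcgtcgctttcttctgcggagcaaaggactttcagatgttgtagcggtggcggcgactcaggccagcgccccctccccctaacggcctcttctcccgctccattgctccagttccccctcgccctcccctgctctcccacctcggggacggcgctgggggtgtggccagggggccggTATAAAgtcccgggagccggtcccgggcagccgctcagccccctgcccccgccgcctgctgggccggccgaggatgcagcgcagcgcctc

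Igfbp5, chr9:81914138-81914437, minus strand: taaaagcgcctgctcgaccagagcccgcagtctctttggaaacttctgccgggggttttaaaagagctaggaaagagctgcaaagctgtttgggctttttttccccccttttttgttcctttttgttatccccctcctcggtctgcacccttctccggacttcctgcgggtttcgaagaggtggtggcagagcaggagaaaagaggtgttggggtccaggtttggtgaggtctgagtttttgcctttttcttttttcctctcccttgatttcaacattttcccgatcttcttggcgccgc

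Insr, chr12:6128754-6129053, minus strand: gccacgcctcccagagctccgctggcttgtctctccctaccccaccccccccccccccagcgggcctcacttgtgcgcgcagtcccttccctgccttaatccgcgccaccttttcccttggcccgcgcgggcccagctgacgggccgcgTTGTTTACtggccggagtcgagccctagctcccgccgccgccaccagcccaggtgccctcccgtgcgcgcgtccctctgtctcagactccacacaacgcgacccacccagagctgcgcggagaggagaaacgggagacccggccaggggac

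The *Igfbp4* window held a TATA box from 40 to 35 bases before the start, a motif found in 14.2% of the 33469 promoters of this length, and it had 71.0% G and C. The *Igfbp5* window had 50.7% G and C and held none of the 4 motifs. The *Insr* window held the forkhead core from 101 to 94 bases before the start, and 1.1% of all promoters held it. FOXO proteins are transcription factors that insulin signalling through AKT keeps out of the nucleus. Among the other windows, the E-box stood in *Igf1r* and *Igfbp2* (6.42% of all promoters), and the GC box in *Igf1r*, *Igfbp2*, *Irs1* and both entries of *Igf2* (33.1%). A match describes the letters only.

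*Igfbp4* encodes a binding protein that restrains IGF action until it is cleaved, and was the most abundant of the 10 genes, with a median of 116 FPKM over the 12 libraries. On day 3 it stood at 145 CPM in the control, 197 in d-SMG, 271 in s-GAG and 274 in Alg. On day 7 the values were 227, 273, 254 and 238 CPM in the same order. On day 14 they were 139, 431, 778 and 329 CPM. The control library was the lowest of the 4 on each of the 3 days, and the gap was widest on day 14. This order held for 235 of 16110 genes (1.46%) and for no other member. The reverse order, the control highest on each day, held for 1.65% of genes and for 0 members.

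Over the 3 days, *Igfbp4* was higher in all 3 pairs for every dressing, by a log2 fold change of 1.17 ± 0.44 (SE) for s-GAG, 0.70 ± 0.43 for d-SMG and 0.68 ± 0.43 for Alg. None of these passed the test after adjustment over all genes (edgeR, adjusted p = 0.508 for s-GAG and 1 for both others, with 0.0262 before adjustment for s-GAG). The log2 difference on day 14 alone was 2.49 for s-GAG (95% counting interval 2.43 to 2.55), 1.63 for d-SMG and 1.25 for Alg. Such intervals cover counting error only. *Igfbp4* went with the summed markers of hair follicle across the 12 libraries (Pearson r = 0.64, Spearman 0.78, on log2 values), which ranged from 4.75 to 6470 CPM, and the part of those cells in its level was not tested.

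*Igfbp5*, a matrix-binding family member expressed by fibroblasts and muscle, had the widest spread, 229-fold between its lowest and highest library. On day 3 it stood at 95.5 CPM in the control, 109 in d-SMG, 85.9 in s-GAG and 129 in Alg. On day 7 the values were 63.6, 53.1, 45.0 and 96.3 CPM. On day 14 they were 670, 16.4, 2.93 and 74.2 CPM. The libraries lay close together on the first 2 days, and on day 14 the control was the highest of the 12 and s-GAG the lowest. The day 14 control rested on 13726 reads and the s-GAG library on 43. The SD of its log2 level was at the 98.9th percentile of the 16110 genes.

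On day 14 *Igfbp5* was lower than the control by log2 differences of -7.84 in s-GAG (counting interval -8.30 to -7.41), -5.35 in d-SMG and -3.18 in Alg. Over the 3 days the fitted log2 fold changes were -3.07 ± 1.47, -2.63 ± 1.42 and -1.72 ± 1.31, none past the test (edgeR, adjusted p = 0.554, 1 and 1). The day 14 control decided these values. Without it they were -0.76 for s-GAG, -0.07 for d-SMG and 1.21 for Alg, the last with its direction turned.

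**Figure D1:**
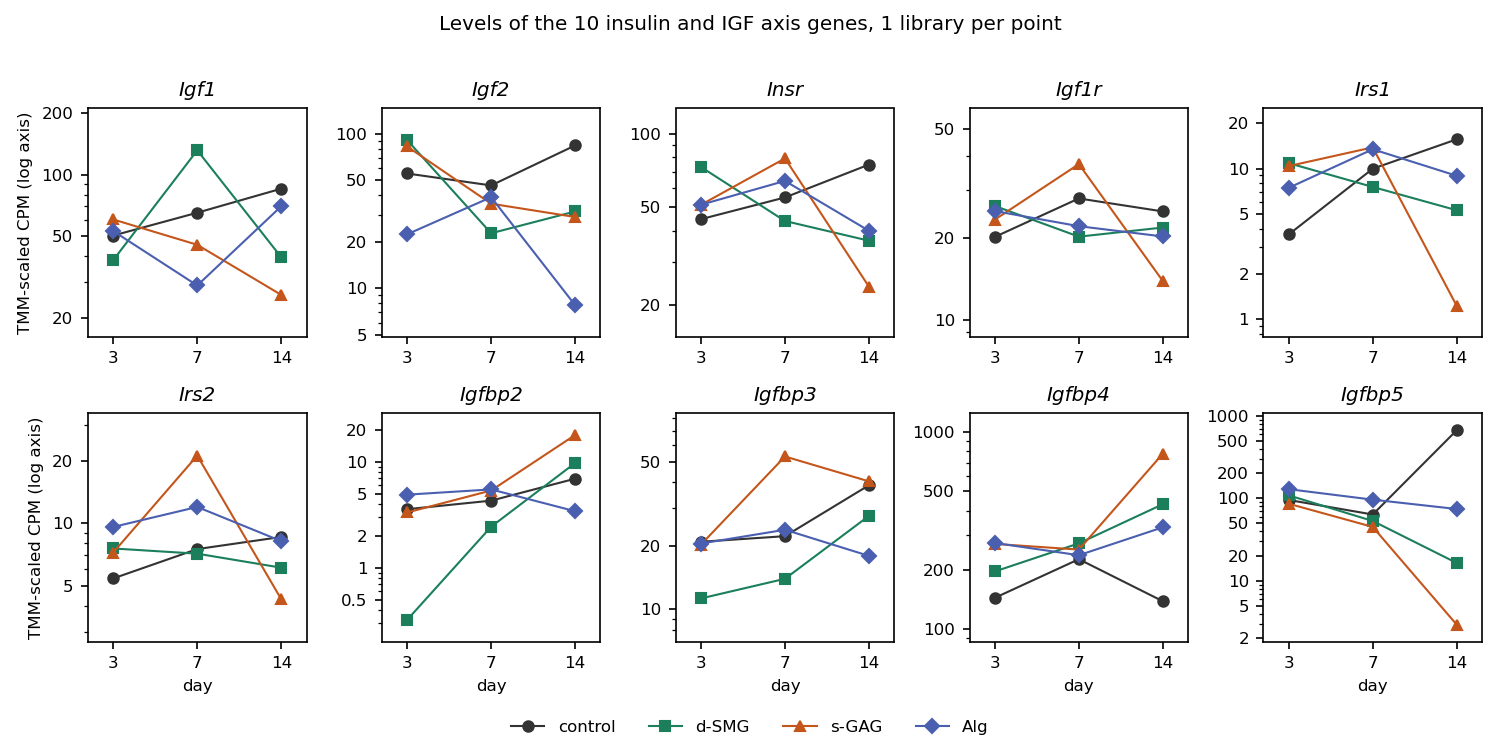
TMM-scaled CPM (log axis, a scale for each gene) of the 10 genes on days 3, 7 and 14, with 1 library per point and lines joining the libraries of a treatment. On day 14 *Igfbp4* runs from 139 CPM in the control to 778 in s-GAG, and *Igfbp5* from 670 CPM in the control to 2.93 in s-GAG.

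*Igfbp2*, a binding protein with a preference for IGF-2, was the least abundant in reads. It had 4 reads in the d-SMG day 3 library (0.32 CPM) and 263 in the s-GAG day 14 library (17.9 CPM). Day 14 was higher than day 3 in 3 of 4 treatments, by a fitted log2 fold change of 1.82 ± 0.69 (edgeR, adjusted p = 0.882, 0.0266 before adjustment), Alg being the exception. The lowest value fell in the library with the lowest keratinocyte marker sum in CPM and the highest in the library with the highest sum. That highest sum, in s-GAG day 14, rested mainly on *Krt14*, and not all listed markers went with it. *Krt14* had 361150 reads there and *Dsp* 4849, against 329015 and 208332 in s-GAG day 7. Across the 12 libraries its level and that sum went together with r = 0.81 and Spearman 0.59, and the part of keratinocytes in this was not tested.

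*Igfbp3*, the main IGF carrier of blood, ranged from 11.3 CPM in d-SMG day 3 to 52.9 CPM in s-GAG day 7. Day 14 exceeded day 3 in 3 of 4 treatments, by 0.77 ± 0.34 on the log2 scale (edgeR, adjusted p = 0.882). On day 7 *Igfbp2* and *Igfbp3* were higher than on day 3 in all 4 treatments, a direction shared by 6.87% of genes, and *Igfbp5* was lower in all 4, shared by 4.74%. None passed the test for that pair of days, where the lowest adjusted p of any member was 0.999.

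As shares of the summed FPKM of these 4 binding proteins, *Igfbp4* made up 12.9% in the day 14 control and 91.8% in s-GAG on that day. *Igfbp5* made up 82.8% and 0.459% in the same libraries. In the other 10 libraries *Igfbp4* was the leading transcript of the 4, with *Igfbp5* next in all of them but d-SMG day 14. The summed FPKM of these 4 exceeded that of the 2 ligands in every library, by 9.62-fold in d-SMG day 3 to 57.4-fold in s-GAG day 14. The s-GAG day 14 library was the one with short transcripts high and long ones low. By relative length the 4 binding proteins had 1386 to 2648 bases, and the ligands 7742 and 10379. The part of length in the 57.4-fold ratio was not tested. The control went from 10.4-fold on day 3 to 11.6-fold on day 7 and 23.7-fold on day 14. These sums leave out binding proteins outside the members, such as *Igfbp6*, named after its values were seen. In the control *Igfbp6* was at 482, 101 and 254 FPKM on those days, beside 127, 141 and 459 for the sum of the 4. The ratios therefore do not give the course of all binding proteins.

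**Figure D2:**
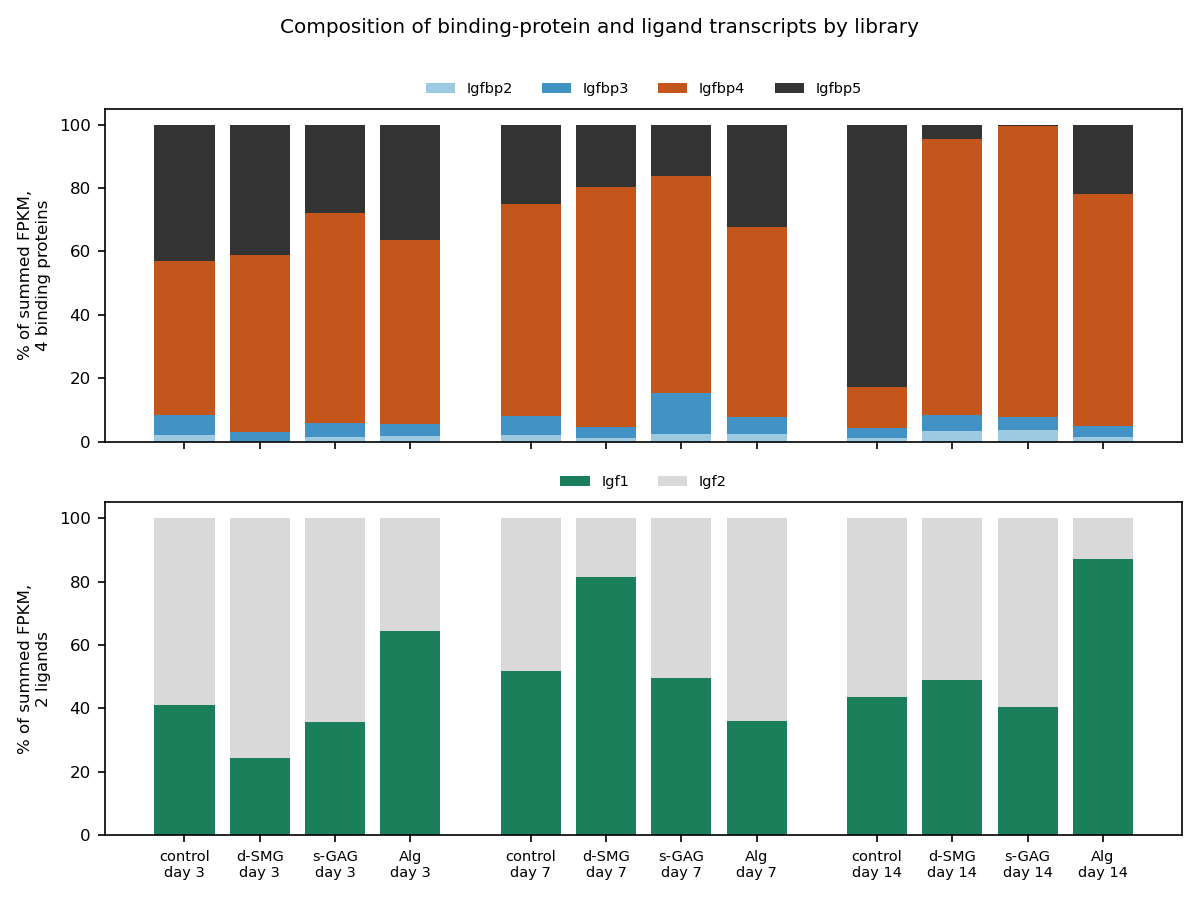
Share of summed FPKM (%) in each of the 12 libraries for the 4 binding proteins (upper bars) and the 2 ligands (lower bars). *Igfbp5* takes 82.8% of the binding-protein sum in the day 14 control and 0.459% in s-GAG, and *Igf1* takes 87.3% of the ligand sum in Alg on day 14.

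*Igf1*, the ligand made by liver and by local mesenchymal cells and macrophages, was at 50.5, 65.2 and 85.5 CPM in the control on days 3, 7 and 14. The d-SMG libraries had 38.3, 132 and 39.5 CPM, and those of s-GAG 60.5, 45.5 and 25.9. The Alg libraries had 53.1, 28.8 and 70.2 CPM. The treatments thus peaked on different days, and day means overlapped (50.6 ± 9.23, 67.8 ± 45.0 and 55.3 ± 27.4 CPM, SD, n = 4). No contrast of *Igf1* passed the test, the largest being -0.61 ± 0.58 on the log2 scale for s-GAG (edgeR, adjusted p = 0.709). The level went with that of the 6 macrophage markers (r = 0.89, Spearman 0.87, 12 libraries), which summed to 238 CPM in s-GAG day 14 and 2531 CPM in Alg day 14, and the part of macrophages in it was not tested.

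*Igf2*, an imprinted ligand of fetal growth and muscle regeneration, was at 55.3, 46.3 and 84.0 CPM in the control on days 3, 7 and 14. The d-SMG libraries had 91.0, 22.7 and 31.4 CPM, and those of s-GAG 82.8, 35.3 and 28.9. The Alg libraries had 22.3, 38.8 and 7.77 CPM. Alg was below the control on all 3 days, with a log2 difference on day 14 of -3.44 (counting interval -3.71 to -3.17). Its fitted change was -1.57 ± 0.67 and did not pass the test (edgeR, adjusted p = 1, 0.0414 before adjustment). By FPKM, *Igf1* made up 24.3% of the 2 ligands in d-SMG day 3 and 87.3% in Alg day 14, with a median of 46.2%.

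*H19*, the noncoding RNA that shares the imprinted locus of *Igf2*, was named after its values were seen. It took 5.96% of all reads in d-SMG day 3 and 0.389% in d-SMG day 14. Its level went with that of *Igf2* (r = 0.71, Spearman 0.70) and with the skeletal muscle markers (r = 0.81, Spearman 0.77) across the 12 libraries, and the part of muscle was not tested. The s-GAG day 14 library was an exception, with a muscle sum of 76645 CPM and *H19* at 5807 CPM (0.432% of reads). The *Ins2* entry of the insulin gene had 88 to 212 reads per library, at 0.10 to 0.25 FPKM. These figures imply a feature of 48292 bases, far longer than the insulin messenger RNA, so its reads are not given as insulin transcript.

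*Insr*, the insulin receptor, ranged from 23.7 CPM in s-GAG day 14 to 79.2 in s-GAG day 7. *Igf1r*, the IGF-1 receptor, had the smallest spread of the 10, from 13.8 to 37.2 CPM in the same 2 libraries. By FPKM, *Insr* made up 71.2% to 81.6% of the 2 receptors. The fitted log2 fold changes between dressings and control were smaller than their SE for both, from -0.32 to -0.25 for *Insr* and from -0.12 to -0.03 for *Igf1r*. Day means also lay within their spread, at 55.1 ± 12.4, 60.5 ± 14.9 and 43.8 ± 21.9 CPM for *Insr* (SD, n = 4).

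*Irs1*, the adaptor that links both receptors to PI3 kinase, was at 3.65, 9.97 and 15.6 CPM in the control on days 3, 7 and 14. The d-SMG libraries had 10.9, 7.55 and 5.29 CPM, and those of s-GAG 10.4, 13.8 and 1.23. The Alg libraries had 7.45, 13.4 and 8.95 CPM. On day 3 the control was the lowest of the 4, and on day 14 it was the highest. The s-GAG day 14 value rested on 18 reads, against 320 in the control. *Irs2*, the second adaptor, ranged from 4.29 CPM in s-GAG day 14 to 21.2 CPM in s-GAG day 7. None of the fitted changes of either adaptor passed the test, and the largest was -0.72 ± 0.41 for *Irs2* between days 14 and 7 (edgeR, adjusted p = 0.904).

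Across the axis, 0 of the 10 genes passed a false discovery rate of 0.05 in any of the 6 comparisons over libraries, as did 0 of 16110 genes (0%). Before adjustment, p was below 0.05 for 2 members between days 14 and 3 (*Igfbp2*, *Igfbp3*), for 1 with s-GAG (*Igfbp4*), for 1 with Alg (*Igf2*) and for 0 in the other 3 comparisons. Over all genes the same counts were 798 for day 14 against day 3, 292 for day 7 against day 3, 502 for day 14 against day 7, 218 for d-SMG, 1492 for s-GAG and 502 for Alg. DESeq2 called 39, 0, 7, 9, 288 and 88 genes in that order, and limma on FPKM called 0, with 0 members by either. The median member change was -0.31 for d-SMG, -0.17 for s-GAG and -0.18 for Alg, beside -0.03, 0.00 and -0.03 over all genes tested.

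**Figure D3:**
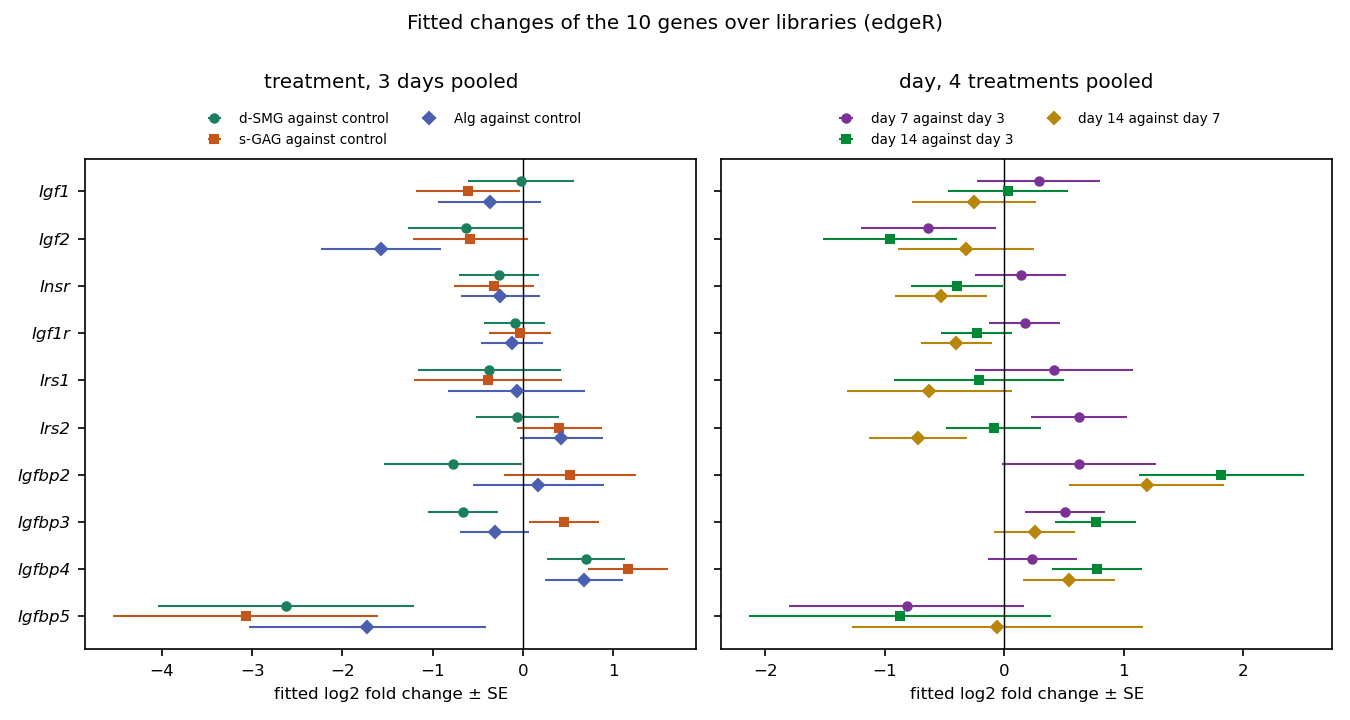
Fitted log2 fold changes (points) with SE (bars) of the 10 genes from edgeR, for each dressing against control with the 3 days pooled and for the days with the 4 treatments pooled. *Igfbp4* lies above 0 for all 3 dressings, from 0.68 to 1.17, and no point passes the adjusted test.

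On single days, the count of members more than 2-fold from the control library was largest on day 14. The 3 comparisons of a day share their control library. On day 3 it was 2 of 10 for d-SMG (23.4% of all genes with at least 10 reads in the pair), 1 for s-GAG (25% of genes) and 2 for Alg (19.7%). On day 7 it was 2 for d-SMG (12.8%), 2 for s-GAG (25.6%) and 1 for Alg (24%). With 10 genes, none of these counts stood far from the share of all genes. On day 14 it was 6 for d-SMG (28.1%), 8 for s-GAG (57.5%) and 5 for Alg (20.8%), the s-GAG count being read against a library in which most genes passed.

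The genes past 2-fold on day 14 in all 3 dressings were *Igfbp4*, higher, and *Igf2* and *Igfbp5*, lower. *Igf1*, *Insr* and *Irs1* were past 2-fold, lower, for d-SMG and s-GAG, and *Igf2* was furthest below the control in Alg. *Irs2* was lower in s-GAG by a fold at the edge of the threshold. *Igfbp2* was at 1.37 in s-GAG and -1.02 in Alg, and *Igfbp3* was at -1.11 in Alg. On day 3 the member past 2-fold in every dressing was *Irs1*, higher by 1.57 in d-SMG, 1.51 in s-GAG and 1.03 in Alg. Relative to genes of like length, as described below, *Irs1* in Alg was at 0.90, inside 2-fold. *Igfbp2* was also lower in d-SMG, by -3.47 on the log2 scale with 4 reads behind it, and *Igf2* was lower in Alg at -1.31. On day 7 the members past it were *Igf1* (1.01) and *Igf2* (-1.03) in d-SMG, *Irs2* and *Igfbp3* (1.25), both higher, in s-GAG, and *Igf1* (-1.18) in Alg.

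**Figure D4:**
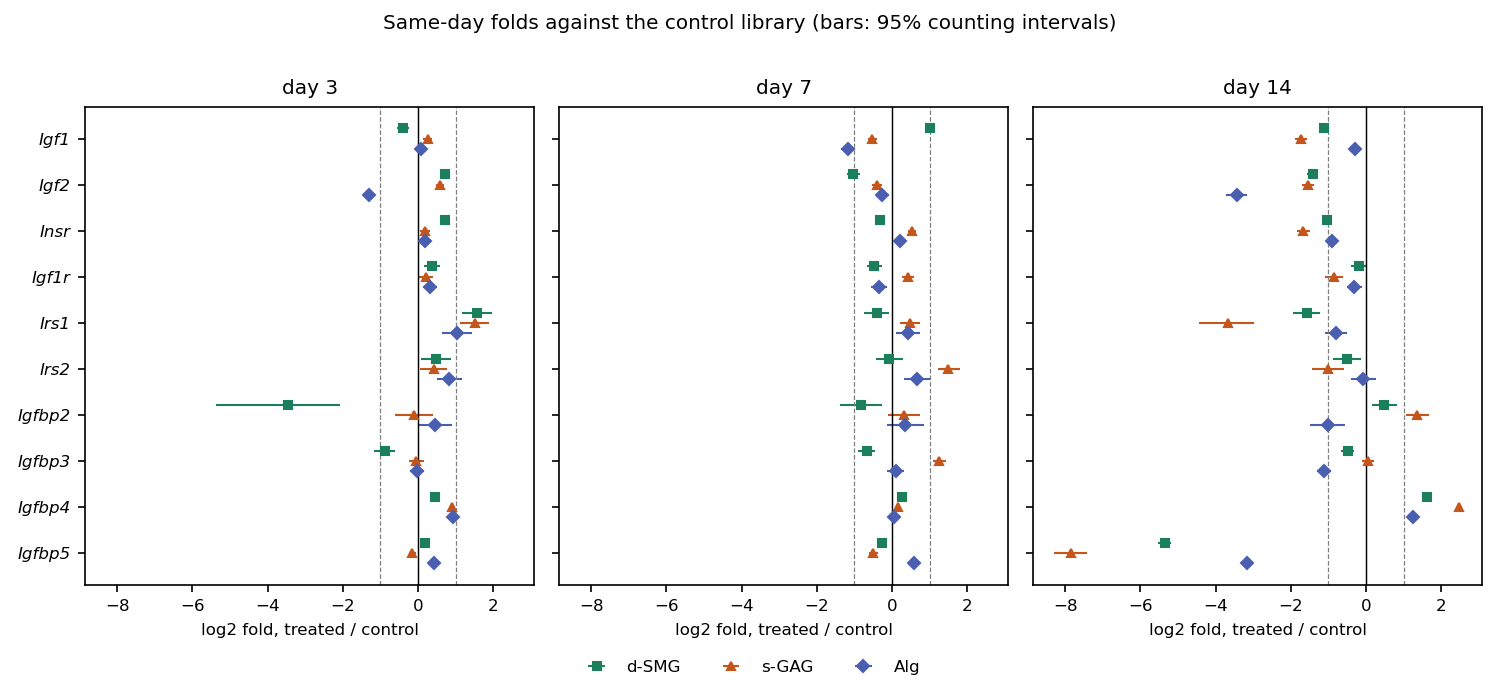
Log2 fold of each dressing against the control library of the same day for the 10 genes, with 95% counting intervals as bars and dashed lines at 2-fold. On day 14 *Igfbp5* reaches -7.84 in s-GAG, and *Igfbp4* lies right of the 2-fold line in all 3 dressings.

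On day 14 the control library was the highest of the 4 for 7 members, namely *Igf1*, *Igf2*, *Insr*, *Igf1r*, *Irs1*, *Irs2* and *Igfbp5*, beside 29.8% of all genes. It was the lowest for *Igfbp4* alone (28.4% of genes). The control was the lowest of the 4 on day 3 and the highest on day 14 for *Insr*, *Igf1r*, *Irs1* and *Irs2*, an order found in 8.6% of genes. Relative to genes of like length, as described below, this order of the members held for *Irs1* alone. Between days 3 and 14, *Igf2*, *Insr*, *Igf1r*, *Irs2* and *Igfbp5* had a higher value on day 14 in the control and a lower one in all 3 dressings (7.33% of genes), and *Igfbp4* did the reverse (7.43%). No member moved in the same direction in all 4 treatments, which 11.1% of genes did. The s-GAG day 14 library was the lowest of the 12 for 6 members, *Igf1*, *Insr*, *Igf1r*, *Irs1*, *Irs2* and *Igfbp5* (28.8% of genes).

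Transcript length moved with these differences in s-GAG on day 14. *Igf1*, *Insr* and *Igf1r* were in the longest decile of genes, *Igf2* and *Irs2* in the next, and the 4 binding proteins were in the shorter part of the range. Set against the median of genes of the same decile of length, a comparison added after seeing the data, 3 of 10 members stayed past 2-fold in s-GAG on day 14, in place of 8. They were *Igfbp4* at 2.13, *Irs1* at -3.08 and *Igfbp5* at -8.62. The share of all genes past 2-fold after this step was not taken, so the count cannot be called high or low. *Insr* was then at -0.31, *Igf1* at -0.37, *Igf2* at -0.50 and *Igf1r* at 0.50. In d-SMG and Alg on that day *Igfbp4* kept 1.48 and 1.17, and *Igf2* -1.11 and -3.36. Length also differed in d-SMG on day 14, with a median of 0.36 for the shortest quartile of genes and -0.35 for the longest. There *Igf1* went from -1.11 to -0.61 and *Insr* from -1.03 to -0.53, both inside 2-fold, while *Irs1* stayed past it at -1.43 and *Igfbp5* at -5.61. On day 3 length differed in the other direction. The medians of the shortest and longest quartiles were -0.37 and 0.35 in s-GAG, -0.29 and 0.28 in Alg, and -0.20 and 0.19 in d-SMG.

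**Figure D5:**
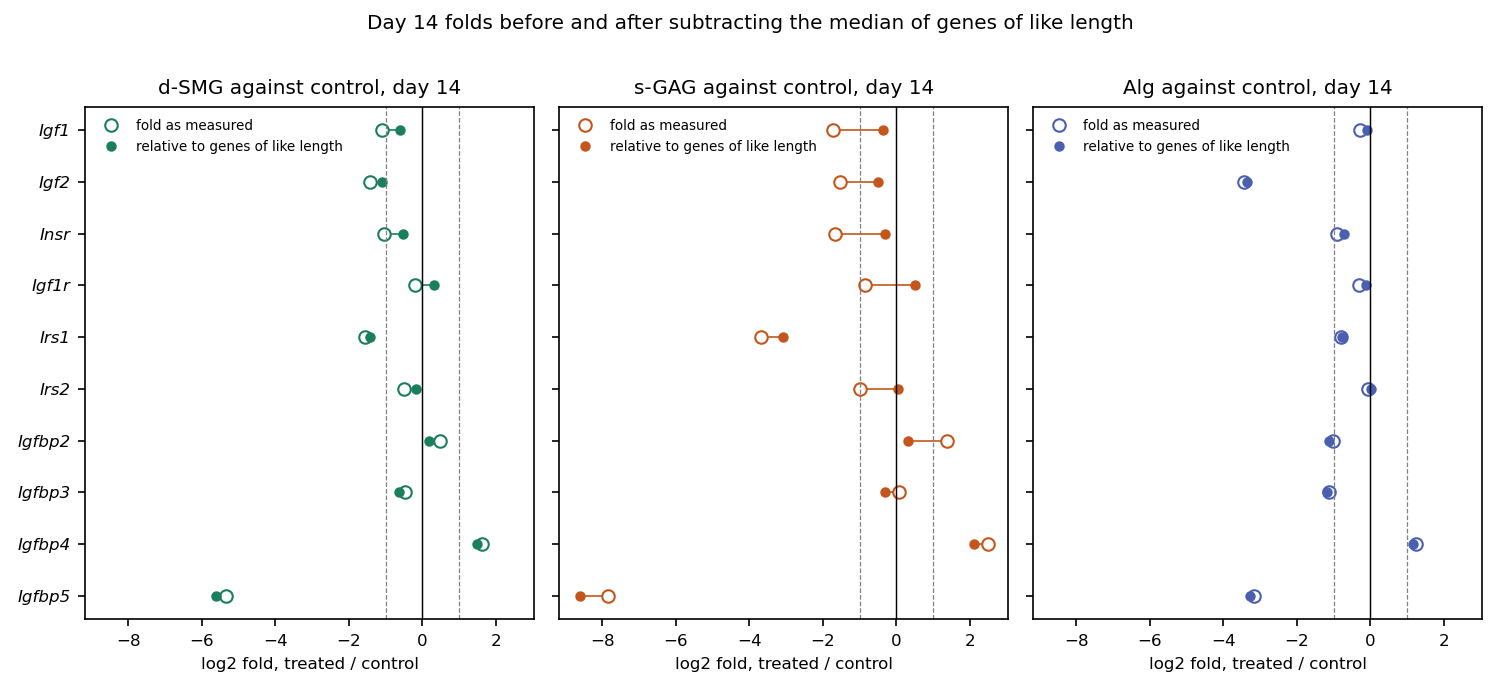
Log2 fold against the control on day 14 for the 10 genes as measured (open circles) and relative to the median of genes in the same decile of transcript length (filled circles), with dashed lines at 2-fold. In s-GAG the long genes *Igf1*, *Insr* and *Igf2* move inside the 2-fold lines, and *Igfbp4* (2.13) and *Igfbp5* (-8.62) stay outside.

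Of 58 further genes of the pathway listed for comparison, covering other ligands and binding proteins, proteases, PI3 kinase, AKT, FOXO and mTOR parts and negative regulators, 56 were in the count table and 51 were tested. *Ins1* and *Pappa* had no entry in the count table, and *Insrr*, *Igfbp1*, *Igfals*, *Irs4* and *Igf2bp1* had too few reads. None of the 51 passed the test in either direction in any comparison. With s-GAG 16 were higher and 35 lower, with a median of -0.28 beside 0.00 over all genes tested. With s-GAG, p was below 0.05 before adjustment (edgeR) for 5 of the 51, beside 1492 of the 16110 genes tested. By this count the list did not stand out from all genes. The next genes are among these 5, were lower on each of the 3 days, and are named for that reason after their values were seen. Each value includes the s-GAG day 14 library, in which short transcripts were high and long ones low, and *Grb10* had 48 reads there. The part of length in these values was not tested. *Grb10*, an adaptor that restrains receptor signalling, was at -1.76 ± 0.70, and *Shc1*, an adaptor to the RAS pathway, at -1.12 ± 0.46. *Inppl1*, a lipid phosphatase that opposes PI3 kinase, was at -0.95 ± 0.39, and *Jak2*, the kinase of the growth hormone receptor, at -0.87 ± 0.38 (edgeR, adjusted p from 0.522 to 0.539). On day 14 alone 7 were more than 2-fold higher and 18 lower in s-GAG, together 49.0% of the list beside 57.5% of all genes. The counts were 3 and 10 in d-SMG (25.5% beside 28.1%), and 1 and 4 in Alg (9.8% beside 20.8%), so no share was above that of all genes.

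The genes whose levels most resembled a member were taken by Pearson correlation of log2 CPM over the 12 libraries, a description only, since libraries also differed in depth, muscle markers and, for s-GAG day 14, transcript length. *Igf1* was most like *B3galnt1* (0.95) and *Gcnt1* (0.93), and *Irs1* most like *Rere* (0.98) and *Dst* (0.97). *Insr* was most like *Pcnx1* (0.96), with *Pdpk1* (0.95) among its 3, a kinase of the same pathway that was on the pathway list. *Igfbp4* was most like *Mnd1* (0.95) and *Kif15* (0.95), *Igfbp5* like *Gprasp1* (0.95), *Igfbp2* like *Awat1* (0.95), *Igf2* like *Tnni1* (0.84), *Igf1r* like *Brpf1* (0.88), *Irs2* like *Mturn* (0.87), and *Igfbp3* like *Mup5* (0.83).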

How the data were processed

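Total RNA of wound tissue was sequenced from rRNA-depleted, stranded, paired-end libraries. Per the labels, 12 libraries covered 4 treatments on 3 days. The authors deposited raw read counts per gene and FPKM values per gene, scaled by the authors to length and depth. The submitters' processing notes name bcl2fastq, FastQC, TopHat2 and edgeR without versions, and the genome build and counting tool are not given in the sources used here. Of the columns of each table, 1 matched no described sample and was not used.

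Counts were tested with edgeR 4.0.16 (R 4.3.3, TMM, filterByExpr, quasi-likelihood, day plus treatment, Benjamini-Hochberg over 16110 genes, threshold 0.05, 6 residual degrees of freedom). Alternatives used DESeq2 1.42.0 and limma 3.58.1 on log2(FPKM + 1) and log2(FPKM + 0.1). Relative length was taken from counts per FPKM. Counting intervals were exact (Clopper-Pearson, 95%). The members, gene lists and marker lists were chosen with earlier results of these data known. Genes outside the members were to be named where they passed the test, which none did, or were among the 3 most like a member in pattern, with a mean of at least 5 CPM. *H19*, *Ins2*, *Igfbp6*, *Grb10*, *Shc1*, *Inppl1* and *Jak2*, and the markers *Krt14* and *Dsp*, were named outside this rule, after their values were seen. Depth was 13748887 to 38302461 reads. A further gene of the pathway list is not reported here.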

Additional observations from a re-analysis of the deposited data

Results flagged for a closer look

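*Igfbp3* in the d-SMG day 3 library (11.3 CPM) stood apart from the other 3 libraries of that day. On log2(CPM + 1), the gap to its nearest neighbour was 0.949 of the whole range, against a critical value of 0.829. Of 30 groups of 4 libraries examined this was the 1 that did so, and chance gives about 1 in 20.

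For 4 members every dressed library lay above the control on day 3 and below it on day 14, an order that 8.6% of all genes tested shared. The difference between the days was not tested. The treated-minus-control log2 difference was taken as the median of the 3 dressings on each day. That median on day 14 minus that on day 3 was -1.23 for *Insr*, -0.62 for *Igf1r*, -3.07 for *Irs1* and -0.97 for *Irs2*. On day 14 the counting intervals of *Irs2* in Alg (-0.07) and of *Igf1r* in d-SMG (-0.20) included 0. Both ends rest on 1 control library each, and transcript length differed on day 3 as well as on day 14. Relative to genes of like length, *Insr* on day 3 was at 0.40 in d-SMG, -0.28 in s-GAG and -0.19 in Alg. On day 14 *Igf1r* was then at 0.31, 0.50 and -0.11, and *Irs2* at -0.18, 0.04 and 0.01, in the same order. By that measure the order of the flag held for *Irs1* and not for *Insr*, *Igf1r* or *Irs2*.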

How the results depend on the processing

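No member was called in any of 120 alternative fits, and the lowest adjusted p of a member over them was 0.0939 (DESeq2). The counts of all genes called, 0 in each comparison, changed in 10 of 120. With DESeq2 they were 39 (day 14 against day 3), 7 (day 14 against day 7), 9 (d-SMG), 288 (s-GAG) and 88 (Alg). Without the low-count filter s-GAG gave 1, and with only the groups compared s-GAG gave 12 and Alg 9. Leaving out 1 library gave 0 to 66 for s-GAG, the 66 without d-SMG day 3, and 0 elsewhere. The fit without the replicate block, day left out, called 0 members and 0 genes for each dressing. Of 200 alternative values of 10 fitted member changes, 1 reversed, *Igfbp5* for Alg at 1.21 without the day 14 control, in a range of -2.65 to 1.21 as each library was left out. The cause was not tested. For *Igfbp5* that range was -4.30 to -0.76 for s-GAG and -3.69 to -0.07 for d-SMG, and for *Igfbp4* with s-GAG 0.72 to 1.56, with d-SMG 0.32 to 1.12 and with Alg 0.32 to 1.08. For *Igf2* with Alg it was -2.57 to -0.87, and between days 14 and 3 it was 1.24 to 2.39 for *Igfbp2* and 0.53 to 1.01 for *Igfbp3*.

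Members past 2-fold moved by over 1.5 times in 17 of 45 alternatives. On day 3 s-GAG had 2 by library size and 2 relative to genes of like length, and Alg had 1 on log2(FPKM + 1). On day 7 d-SMG had 1 by library size, 1 on log2(FPKM + 1) and 1 relative to length. On that day s-GAG had 1 on log2(FPKM + 1) and Alg had 0 relative to length. On day 14 d-SMG and Alg each had 3 on log2(FPKM + 1), and s-GAG had 3 relative to length. At a log2 threshold of 1.5 the counts were 0 for Alg on day 3, 0 for all 3 dressings on day 7, 3 for d-SMG on day 14 and 2 for Alg on day 14. With reads in place of FPKM the median *Insr* share of the receptors was 68.3% in place of 76.0%. By Spearman in place of Pearson, 4 of the 30 most alike genes were shared. The length comparison was chosen after seeing the data, and its counts have no share of all genes beside them. Depth limits *Irs1*, with 18 reads at its lowest, and *Igfbp2*, with 4.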
